A study of Homo sapiens with 4 samples.

Results

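Circular RNAs (circRNAs) are closed RNA rings made when the end of an exon is spliced back to the start of the same or an earlier exon. They lack a poly(A) tail and free ends, are slow to be degraded, and are known to be abundant in neural tissue, where the best known of them, CDR1as, binds the microRNA miR-7. The circRNAs described here are the 1496 of 31346 circRNAs of an RNA-seq table that had at least 100 counts in each of 4 libraries. The members were thus chosen by their counts, so their levels below are a description without a test.

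The libraries came from 2 established lines of human glioblastoma, U87MG and U251MG. For each line, 1 library represents control cells, infected with lentivirus of the empty vector pGreen (shControl in the sample titles). The other represents cells infected with shFLI1 lentivirus, which carries shRNA against the ETS family transcription factor gene *FLI1*. All 4 cultures were infected in the presence of polybrene, selected with puromycin and collected as mixed stable populations rather than clones, and the labels do not say which of 2 designed shRNAs the sequenced shFLI1 cells carried. Each arm of a line is 1 library, so differences inside a line could not be checked by replicates, and all intervals below cover counting error only.

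In what follows, a series of 4 values is in the order U87MG control, U87MG shFLI1, U251MG control, U251MG shFLI1. The targeted gene *FLI1* (chromosome 11, 128685132 to 128813267 in RefSeq on GRCh38) had 107, 52, 216 and 111 counts, or 8.75, 2.45, 11.9 and 3.84 CPM of linear counts (counts-per-million), so it was lower in both shFLI1 libraries although these were deeper. Linear RNAs summed to between 12230285 and 28891606 counts per library and listed circRNAs to between 1182500 and 2800152. The glial and progenitor filament genes *GFAP*, *NES* and *VIM* were present in every library. *NES* and *VIM* were higher in U251MG than in U87MG, with 187, 296, 387 and 660 and with 2888, 3125, 6526 and 7260 CPM of linear counts. *GFAP*, the filament gene of astrocytes, was far lower in U251MG and higher in both shFLI1 libraries, with 594, 1661, 20.1 and 97.2 CPM of linear counts. The part of these differences in the results below was not tested.

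The circRNA rows carried a circBase identifier in place of a gene, and no file used here pairs these identifiers with host genes, junctions or sequences. Host genes are therefore not given. Each circRNA row held whole counts, and every value was either 0 or at least 10, so a 0 stands for fewer than 10 counts in that library and not for absence. The number of circRNAs listed per library was larger in the deeper libraries, from 15053 in U87MG control and 19847 in U251MG control to 26017 in U87MG shFLI1 and 27794 in U251MG shFLI1. A total of 13610 circRNAs were listed in all 4 libraries, and the 1496 well-counted circRNAs are the part of these in which no value lies near that minimum. The libraries were made from mRNA purified on poly-T beads, whereas circRNAs lack a poly(A) tail. The sources used here do not say whether a count is of reads across the back-splice or of all reads on the circRNA sequence. A possible share of linear RNA reads among the circRNA counts was not tested, so levels and fold changes below are those of the deposited counts.

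The well-counted circRNAs were few but held most of the circRNA counts. Their shares of the listed circRNA counts were 68.6% (95% Clopper-Pearson interval 68.5 to 68.7), 60.7% (60.6 to 60.7), 63.8% (63.7 to 63.8) and 60.2% (60.2 to 60.3). Their share was highest in the shallowest library and lowest in the deepest. Set against linear RNAs, they had 6.63, 7.06, 5.81 and 5.84 counts per 100 linear counts. The other listed circRNAs had 3.04 and 4.58 counts per 100 linear counts in U87MG, and 3.30 and 3.85 in U251MG. Most of the higher circRNA share of the shFLI1 libraries thus lay outside the well-counted circRNAs. The 100-count rule favours this split. It leaves out circRNAs that were low in control and high in shFLI1 cells, so the split is a description. In a bulk library, a change in the number of cells that make an RNA and a change in the amount per cell cannot be told apart.

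The shallowest library decided most of the membership. The lowest of the 4 counts was in U87MG control for 1143 members, in U251MG control for 317, in U87MG shFLI1 for 23 and in U251MG shFLI1 for 13. At the threshold, 26 members had a lowest count of exactly 100, such as hsa_circ_0011430 with 100, 211, 153 and 301 counts. Just below it, 16 circRNAs had a lowest count of 99, such as hsa_circ_0035555 with 99, 196, 142 and 280 counts. A minimum of 50 counts would admit 3111 circRNAs and a minimum of 200 counts 697.

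Levels are given as CPM, that is counts-per-million of circRNA counts, with the circRNA totals scaled by the TMM method over the circRNA rows. The level spread was wide and, apart from its extremes, nearly the same in all 4 libraries. The scaling brings the bulk of circRNAs to a common level, so like medians and quartiles follow in part from it. The median member had 166 CPM in U87MG control, 169 in U87MG shFLI1, 165 in U251MG control and 165 in U251MG shFLI1. The upper quartile lay between 358 and 369 CPM, whereas the maximum reached 45866 CPM in U87MG control and 23092 CPM in U251MG shFLI1. The 4 most abundant members of each library took 13.2% of the members' counts in U87MG control, 11.8% in U87MG shFLI1, 11.9% in U251MG control and 9.03% in U251MG shFLI1, and the 100 most abundant took between 42.7% and 47.4%.

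**Figure D1:**
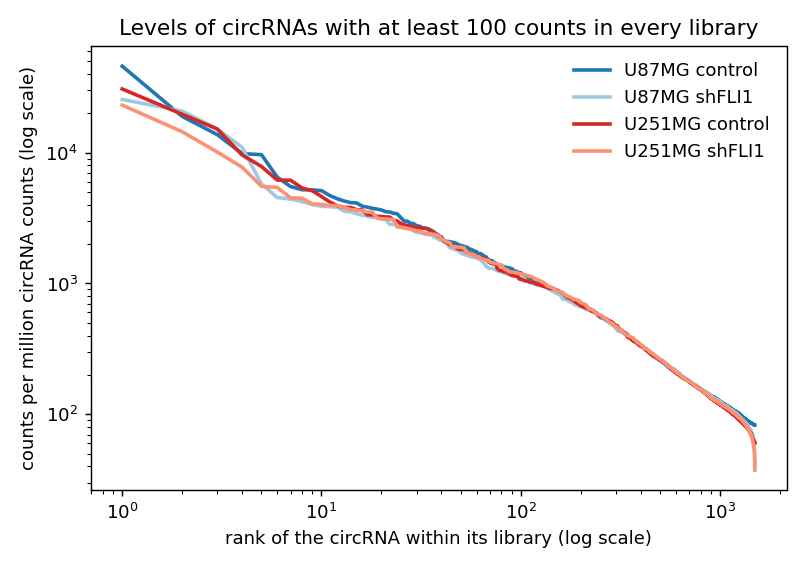
Level of each of the 1496 circRNAs with at least 100 counts in every library (vertical axis, CPM on a log scale) against its rank within the library (horizontal axis, log scale), 1 line per library. The 4 lines lie close together except at the top ranks, where U87MG control reaches 45866 CPM and U251MG shFLI1 23092 CPM, and at the lowest ranks, where the 100-count rule ends the lines at between 37.5 and 82.6 CPM.

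The most abundant member was hsa_circ_0006940, with 55516, 62362, 50995 and 63499 counts. These correspond to 45866, 25529, 30685 and 23092 CPM, so it was lower in the shFLI1 library of both cell lines, by -0.85 (U87MG) and -0.41 (U251MG) on the log2 scale. The next 3 were hsa_circ_0001853, hsa_circ_0001854 and hsa_circ_0138706. hsa_circ_0001853 had 18928, 20799, 19691 and 14454 CPM. hsa_circ_0001854, the next identifier by number, followed it closely with 13739, 15195, 15162 and 10118 CPM. Their count ratio stayed between 1.30 and 1.43 in the 4 libraries. hsa_circ_0138706 had 9834, 10984, 9593 and 7738 CPM, and like the other pair it was slightly higher in shFLI1 cells of U87MG (log2 fold change 0.16) and lower in those of U251MG (-0.31). The fifth, hsa_circ_0101430, had 9652, 5763, 7845 and 3945 CPM, log2 fold changes of -0.74 and -0.99. None of these 5 passed the test of a shared knockdown change described below.

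Of circRNAs known from the field, a list of 14 matched by circBase identifier alone had 12 listed circRNAs and 1 well-counted member. That member was hsa_circ_0001946, which is CDR1as, an X-linked circRNA with many binding sites for miR-7. The mature miR-7 that CDR1as binds is shown to make that known contact concrete, with its seed (bases 2 to 8, from RefSeq on GRCh38) in capitals.
hsa-miR-7-5p: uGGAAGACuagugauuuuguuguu
CDR1as had 140, 238, 346 and 258 counts, or 116, 97.4, 208 and 93.8 CPM. The U251MG control library was the highest, and the other 3 lay close together. In U251MG its log2 fold change with knockdown was -1.14 (95% Clopper-Pearson interval -1.39 to -0.91), a level of 45.3% of control. In U87MG it was -0.25, and the interval of -0.55 to 0.06 included no change. Over both cell lines the change did not pass the test (Benjamini-Hochberg adjusted p of 0.88 from edgeR's quasi-likelihood test).

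The other 11 listed circRNAs of that list were low, with a highest value of 98 counts in any library, and 3 of them were listed in all 4 libraries. circHIPK3 (hsa_circ_0000284), one of the most widely studied circRNAs of human cells, had 20, 41, 36 and 98 counts. circPVT1 (hsa_circ_0001821) had 27, 52, 19 and 22, and circZKSCAN1 (hsa_circ_0001727) had 19, 11, 22 and 22. circSMARCA5 (hsa_circ_0001445), which has been studied in glioblastoma, had 32, 29 and 41 counts in U87MG shFLI1, U251MG control and U251MG shFLI1 and was not listed in U87MG control. circMTO1 (hsa_circ_0007874) and circNT5E (hsa_circ_0077232) were not listed in any library. *FECR1*, the *FLI1* circRNA that motivated part of the study, could not be matched to an identifier and is given no value.

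The question put to the knockdown comparison was which circRNAs changed with *FLI1* depletion. Most well-counted circRNAs differed little between shFLI1 and control. The rule bears on the direction of these values: the lowest of the 4 counts was in a control library for 1460 of 1496 members, so a minimum count in every library leaves out circRNAs that were low in control and high in shFLI1 cells and keeps those that were high in control. Numbers of members higher and lower are therefore a description, here and for the cell lines, and no direction is read from them. In U87MG, 1338 members (89.4%) stayed within 1.5-fold of control, 4 (0.267%) were more than 2-fold higher and 25 (1.67%) more than 2-fold lower in shFLI1 cells. In U251MG, 1337 members (89.4%) stayed within 1.5-fold, 3 (0.201%) were more than 2-fold higher and 44 (2.94%) more than 2-fold lower. Among all circRNAs listed in both libraries of a cell line, the past-2-fold shares were 2.01% upwards and 2.42% downwards for U87MG and 1.39% and 2.62% for U251MG. Past 1.5-fold, 3.34% of members were higher and 7.22% lower in U87MG, against a background of 11.3% and 11.0%. In U251MG, 3.94% were higher and 6.68% lower, against 9.44% and 11.8%. Over circRNAs listed in at least 1 of the 2 libraries, the shares were 43.9% upwards and 2.36% downwards for U87MG and 31.6% and 4.6% for U251MG, figures that count every circRNA under the 10-count minimum in the shallower control library as 0.

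The distribution of fold changes was narrow. In U87MG the members' log2 fold changes had a median of -0.03, quartiles of -0.23 and 0.18, and a range from -2.41 to 1.30. In U251MG the median was 0.09, the quartiles were -0.15 and 0.26, and the range was from -4.36 to 1.59. Other circRNAs listed in all 4 libraries, 12114 with fewer than 100 counts in at least 1, had medians of 0.07 and 0.04. They also spread more, with an SD of 0.50 in U87MG and 0.49 in U251MG against 0.38 and 0.43 for the members, and their lower counts carry a larger counting error.

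The zero of this scale depended on what was held constant. Scaling to linear library size, the total count of linear RNAs, moved every member's log2 fold change upwards by about 0.21 in U87MG and 0.05 in U251MG. The median then became 0.19 in U87MG and 0.14 in U251MG. In U87MG, 705 members were higher and 791 lower in shFLI1 cells with TMM over circRNAs, against 1102 and 394 with linear library size. In U251MG the numbers were 904 and 592, against 981 and 515. The past-2-fold split in U87MG likewise turned from 4 higher and 25 lower to 15 and 16, with a background of 4.98% and 1.46%. In U251MG it was 3 higher and 33 lower, with a background of 1.71% and 1.99%.

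**Figure D2:**
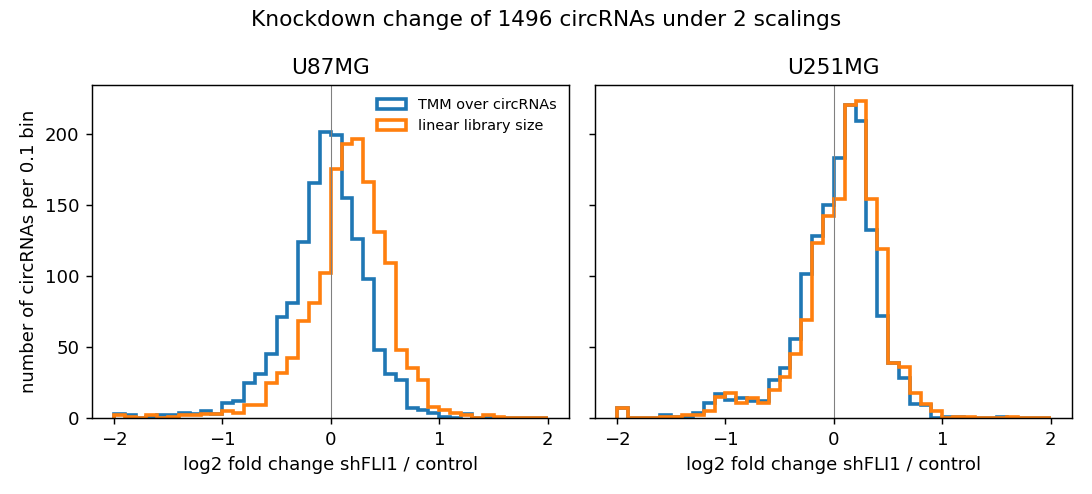
Number of the 1496 circRNAs (vertical axis) by log2 fold change of shFLI1 over control (horizontal axis, bins of 0.1, values beyond the axis placed in the end bins), for U87MG and U251MG, with TMM over circRNAs and with linear library size. The whole U87MG distribution moves right by about 0.21 under linear library size, whereas that of U251MG moves by about 0.05.

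A small set of members was much lower in shFLI1 cells of both lines. Of the members, 8 (0.535%) were past 2-fold lower in both, and none (0) was more than 2-fold higher in both. Of all circRNAs listed in all 4 libraries, 0.397% were that much lower and 0.147% that much higher. Scaled to linear library size, 8 members were lower and 1 higher, with shares of 0.287% and 0.257% over all. All 8 had fewer raw counts in the shFLI1 library of each line, although that library was the deeper one. This largely follows from the 2-fold cut. The listed circRNA total in shFLI1 was 2.09-fold that of control in U87MG and 1.70-fold in U251MG. Among all members, 25 in U87MG and 79 in U251MG had fewer raw counts in shFLI1. Each of the 8 had the larger difference in U251MG, with log2 fold changes of -1.30 to -2.41 in U87MG and -1.59 to -4.36 in U251MG. Each was also higher in U251MG control than in U87MG control, by 0.32 to 1.46 on the log2 scale. This was the case for 638 of the 1496 members and for 6098 of the 12114 other circRNAs listed in all 4 libraries. Both control values of this difference also enter the knockdown changes by which the 8 were chosen. The selection thus bears on both, and the cause of the pattern was not tested. Some of the 8 carry consecutive identifiers and may not be separate RNAs.

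By the smaller of its 2 changes, hsa_circ_0033064 fell most. It had 2150, 816, 4613 and 1273 counts, or 1776, 334, 2776 and 463 CPM. The shFLI1 level was 18.9% of control in U87MG (log2 fold change -2.41, 95% interval -2.53 to -2.29) and 16.7% in U251MG (-2.58, -2.67 to -2.49). Both control libraries lay far above both shFLI1 libraries, which its choice by the smaller change favours. hsa_circ_0020624 came next, with 304 and 119 counts in U87MG and 922 and 191 in U251MG. Its log2 fold changes were -2.34 (-2.68 to -2.06) and -2.98 (-3.23 to -2.77), leaving 19.7% and 12.7% of the control level.

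A change shared by the lines was sought with edgeR's quasi-likelihood test on the 4 libraries together, taking the lines as replicates and the line as a block. The test leaves 1 residual degree of freedom. Of 22002 circRNAs tested, 7 had a Benjamini-Hochberg adjusted p below 0.05, all lower in shFLI1 cells (0.0318% of those tested, against 0.0% called higher). Of the members, 3 were called, all lower. With linear library size edgeR called 10 members, where 0.123% of all circRNAs were called. Among circRNAs listed in all 4 libraries, a fit added after seeing the data, it called 1 member higher and 9 lower, against 0.022% and 0.279% of those tested (0.301% together). At an unadjusted p below 0.05 the same edgeR test had 48 members higher (3.21%) and 110 lower (7.35%), where 2.89% and 1.91% of all circRNAs tested were.

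The called members were hsa_circ_0033064, hsa_circ_0020624 and hsa_circ_0033065, the last named here because it was called. Their edgeR Benjamini-Hochberg adjusted p values were 0.0165, 0.0377 and 0.0457, with shared log2 fold changes of -2.50, -2.70 and -2.46, and all were lower in 2 of 2 cell lines. hsa_circ_0033065 had 520 and 256 counts in U87MG and 1371 and 310 in U251MG, or 430, 105, 825 and 113 CPM. hsa_circ_0033064 and hsa_circ_0033065 carry consecutive identifiers, so these calls may not be of separate RNAs. For hsa_circ_0033064 the adjusted p ranged over the alternatives from 3.65e-52 with DESeq2 to 0.134 without the cell line block. hsa_circ_0033065 also missed the threshold without the filter on low counts (0.0581), and none of the 3 passed without the block.

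The members that rose most in both lines lay less far from control than those that fell most. The rule leaves out circRNAs low in control and high in shFLI1 cells, so no direction is read from this. hsa_circ_0084768, the highest by the smaller of its 2 fold changes, had 184, 743, 241 and 849 counts, or 152, 304, 145 and 309 CPM. Its log2 fold changes were 1.00 (0.77 to 1.24) and 1.09 (0.88 to 1.30), and the control and shFLI1 libraries did not overlap. Its choice by the smaller fold change favours this separation. edgeR's adjusted p was 0.390, with alternatives between 0.000600 (DESeq2) and 0.522 (no filter on low counts). hsa_circ_0096172 came next, with 127, 230, 75.2 and 127 CPM and log2 fold changes of 0.85 and 0.75. Its U87MG control level and its U251MG shFLI1 level were alike, so the groups met, and its edgeR adjusted p was 0.604.

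**Figure D3:**
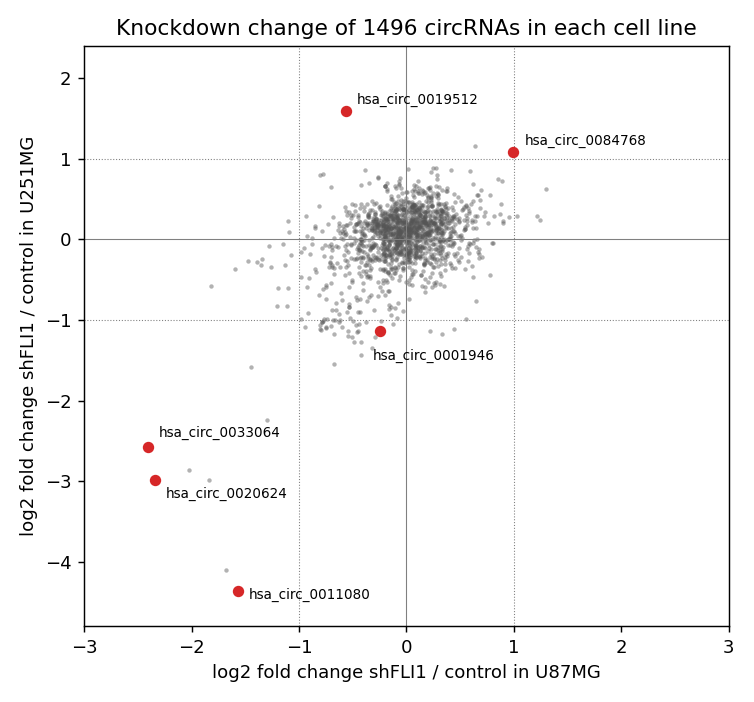
Log2 fold change of shFLI1 over control in U251MG (vertical axis) against that in U87MG (horizontal axis) for 1496 circRNAs, TMM over circRNAs, 1 grey point per circRNA, 6 named circRNAs in red and dotted lines at 2-fold. Most points lie within 2-fold of 0 in both lines, and 8 lie beyond 2-fold lower in both, at the lower left.

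The cell lines agreed in part. Between the members' log2 fold changes in the 2 lines, Pearson's r was 0.45 and Spearman's rho 0.29 across 1496 circRNAs, which share libraries and in part reads and are not independent. The 2 comparisons share no library. Other circRNAs listed in all 4 libraries had an r of 0.22 and a rho of 0.17. Over the 1428 members within 2-fold in both lines, r was 0.26 and rho 0.22. This cut was made on the correlated values themselves, which can lower r by itself. No part of r is therefore assigned to the largest differences. Among the 374 members with the highest mean level (368 CPM and above) r was 0.59, and among the 374 with the lowest (112 CPM and below) it was 0.28.

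Agreement in sign was weak. A total of 855 members (57.2%) had the same sign in both lines, 484 higher and 371 lower in both lines, against 56.4% of all circRNAs listed in all 4 libraries. With linear library size the share was 67.4%, with 798 higher and 211 lower in both, against 60.2% of all. Past 1.5-fold in both lines, 8 members (0.535%) were higher and 44 (2.94%) lower, against 1.9% and 2.31% of all circRNAs listed in all 4 libraries. With linear library size these numbers became 15 (1.0%) and 17 (1.14%), against 4.02% and 1.2%. In opposite directions past 1.5-fold were 4 members (0.267%), against 1.29% of all circRNAs listed in all 4 libraries.

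For some members the values of the 2 lines stood far apart. The largest difference towards U251MG was in hsa_circ_0019512, with 304, 415, 194 and 973 counts, or 251.2, 170, 117 and 354 CPM. It was lower with knockdown in U87MG (log2 fold change -0.56, interval -0.78 to -0.35) and higher in U251MG (1.59, 1.38 to 1.83). The largest difference in the other direction was in hsa_circ_0011080, with 882, 297, 1720 and 82.6 CPM. It was lower in both lines, to 33.7% of control in U87MG and to 4.85% in U251MG, the lowest percentage of any member in either line. Its edgeR adjusted p for a shared change was 0.427, and the difference between the lines could not be tested with 1 library per arm.

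More members were past 2-fold between the cell lines than with knockdown. In control libraries, 31 members (2.07%) were more than 2-fold higher in U251MG and 51 (3.41%) more than 2-fold higher in U87MG, where 4.28% and 4.02% of all circRNAs listed in all 4 libraries were. In shFLI1 libraries these numbers were 32 (2.14%) and 35 (2.34%), against 3.53% and 3.95%. Scaled to linear library size, they became 20 and 72 in control libraries, against 2.99% and 5.66% of all, and 17 and 97 in shFLI1 libraries, against 1.68% and 8.72%. The difference in control and the difference in shFLI1 libraries had the same sign for 1065 members (71.2%), with r = 0.62 and rho = 0.61. The same values over all circRNAs listed in all 4 libraries are not given here, so no trait of the members is read from them. Each pair of lines was set side by side in separate libraries, and each line is 1 line. In both arms at once, 11 members (0.735%) were more than 2-fold higher in U251MG and 7 (0.468%) in U87MG, against 0.926% and 0.779% of all circRNAs listed in all 4 libraries. With linear library size the members' median difference moved from -0.04 to -0.23 (U251MG minus U87MG), and the numbers higher and lower in U251MG from 684 and 812 to 410 and 1086.

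In the same edgeR fit, with the knockdown as a block, 41 of 22002 circRNAs (0.186%) differed between the lines at a Benjamini-Hochberg adjusted p below 0.05, 27 higher in U251MG (0.123%) and 14 higher in U87MG (0.0636%). Of these 5 were members, all higher in U251MG. With linear library size edgeR called 119 members, 23 higher in U251MG and 96 higher in U87MG, where 2.14% of all circRNAs were called. The split by direction over all circRNAs is not given for that scaling. With TMM over circRNAs, none (0) of the members was called higher in U87MG. In that edgeR test 224 members (15%) had an unadjusted p below 0.05 in that direction, against 151 (10.1%) in the other direction. Of all circRNAs tested, 5.23% and 5.66% had one. With DESeq2, 165 members (11.0%) were called, among 326 of all 22002 circRNAs tested. Of these members, 85 were higher in U87MG and 80 in U251MG. The number of calls thus rested strongly on the fit, and a fit confined to the 13610 circRNAs listed in all 4 libraries, added after seeing the data, called 137 members, where 4.72% of all were called. Of these members 63 were higher in U251MG and 74 in U87MG, against 2.38% and 2.34% of all.

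hsa_circ_0093231 and hsa_circ_0014205 were the members that stood highest in U251MG in both arms. hsa_circ_0093231 had 150 CPM in U87MG control and 240 in U87MG shFLI1, against 564 in U251MG control and 740 in U251MG shFLI1. The U251MG level was 3.75-fold higher in control and 3.07-fold higher in shFLI1 libraries (edgeR adjusted p 0.0256). hsa_circ_0014205 had 128 and 54.9 CPM in U87MG and 391 and 220 in U251MG, a 3.03-fold and a 3.95-fold difference (edgeR adjusted p 0.0330). It was also lower in the shFLI1 library of each line, by -1.21 and -0.83 on the log2 scale.

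The other called members were hsa_circ_0017882, hsa_circ_0017884 and hsa_circ_0013675, named because they were called. hsa_circ_0017882 was among the abundant members, with 1977 and 1685 CPM in U87MG and 5110.5 and 5420.3 in U251MG (edgeR adjusted p 0.0131). hsa_circ_0017884 had 685 and 626 CPM in U87MG and 1828 and 2181 in U251MG (edgeR adjusted p 0.0245). The ratio of the counts of this pair stayed between 2.48 and 2.89 in the 4 libraries. hsa_circ_0013675 had 374 and 326 CPM in U87MG and 1039 and 861 in U251MG (edgeR adjusted p 0.0407, and 0.0543 without the filter on low counts).

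In the other direction, hsa_circ_0096149 had 308 and 474 CPM in U87MG and 138 and 192 in U251MG, 2.23-fold higher in U87MG in control and 2.46-fold in shFLI1 libraries. hsa_circ_0069198 had 275 and 260 CPM in U87MG and 108 and 117 in U251MG, 2.54-fold and 2.22-fold higher in U87MG. In both, the lowest U87MG library lay above the highest U251MG library. Their choice as the members highest in U87MG in both arms favours this. Their edgeR adjusted p values were 0.0799 and 0.0830, and over the alternatives they ranged down to 3.46e-07 and 4.94e-06 with DESeq2 and up to 0.442 and 0.422 without the block.

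**Figure D4:**
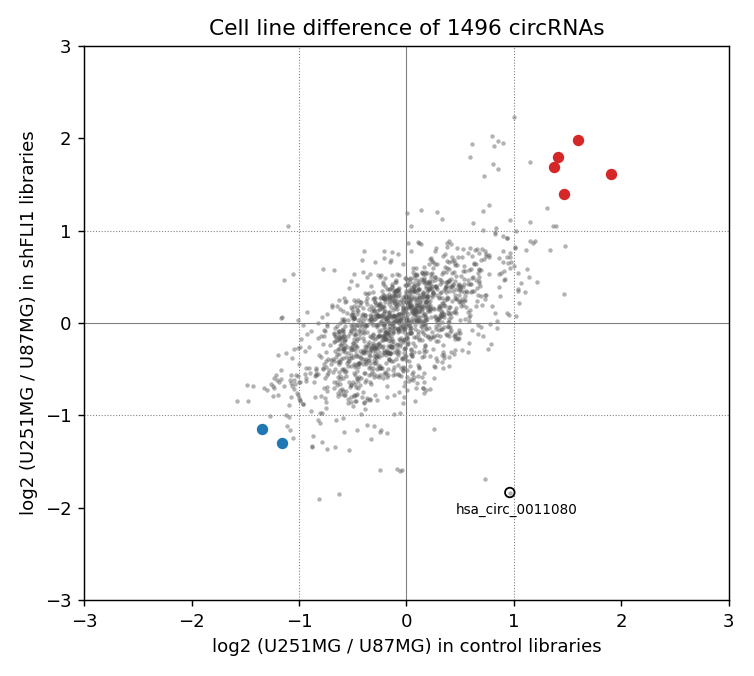
Log2 ratio of U251MG over U87MG in shFLI1 libraries (vertical axis) against that in control libraries (horizontal axis) for 1496 circRNAs, TMM over circRNAs, dotted lines at 2-fold. Red points are the 5 members called by edgeR, blue points the 2 highest in U87MG in both arms, and the open circle is hsa_circ_0011080, which was higher in U251MG in control (0.96) and lower in shFLI1 libraries (-1.83).

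Members with neighbouring identifiers had like fold changes. Of the 1496 members, 599 (40.0%) lay in 241 runs of consecutive identifier numbers, the longest of 13. For the 358 pairs with consecutive numbers, the median absolute difference in log2 fold change was 0.14 in U87MG and 0.11 in U251MG. For pairs more than 1000 numbers apart it was 0.32 and 0.30. The difference between the cell lines showed the same gradient, with 0.11 for consecutive pairs and 0.40 for distant ones. Across consecutive pairs Pearson's r of the fold changes was 0.82 in U87MG and 0.92 in U251MG, and beyond 1000 numbers it was -0.01 and -0.00.

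**Figure D5:**
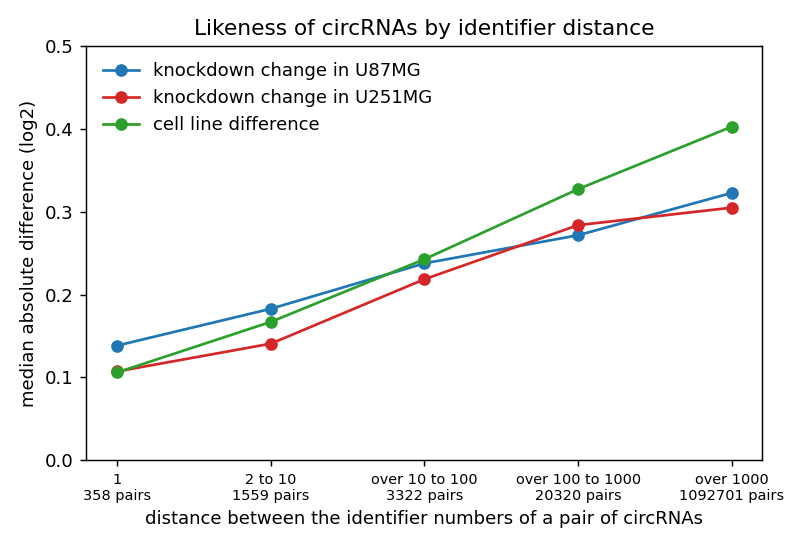
Median absolute difference between the members of a pair (vertical axis, log2) by the distance between their identifier numbers (horizontal axis, with the number of pairs), for the knockdown change in each cell line and for the cell line difference. All 3 lines rise with distance, from between 0.11 and 0.14 for consecutive identifiers to between 0.30 and 0.40 beyond 1000.

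Levels were less alike than fold changes. The median absolute difference in log2 mean level was 1.14 for consecutive pairs and 1.05 for pairs more than 1000 numbers apart, whereas Pearson's r of the levels fell with distance, from 0.40 for consecutive pairs and 0.23 at 2 to 10 numbers to -0.00 beyond 1000. In the run of 13, hsa_circ_0101420 to hsa_circ_0101432, mean levels ran from 134 to 6801 CPM. All 13 were lower in shFLI1 cells of both lines, with log2 fold changes between -0.95 and -0.42 in U87MG and between -1.28 and -0.92 in U251MG, and 10 were past 2-fold in U251MG. Another run, hsa_circ_0000511 to hsa_circ_0000515, had 5 members between -0.75 and -0.48 in U87MG and between -1.27 and -1.0 in U251MG. The 20 members from hsa_circ_0000511 to hsa_circ_0000520 and from hsa_circ_0101420 to hsa_circ_0101432 made up 16 of the 44 members past 2-fold lower in U251MG. Some of them lay at the cut, such as hsa_circ_0000511 with -1.0 in U251MG, and -0.95 with linear library size. With that scaling the 44 became 33. The run of 10, hsa_circ_0079268 to hsa_circ_0079277, was lower in both lines by less, between -0.55 and -0.11 in U87MG and between -0.45 and -0.10 in U251MG.

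The members furthest below control had such companions too. hsa_circ_0020625, next in number to hsa_circ_0020624, had log2 fold changes of -1.84 and -2.99. hsa_circ_0002470 is far in number from hsa_circ_0011080 but moved with it, with -1.68 in U87MG and -4.10 in U251MG, and their count ratio stayed between 1.59 and 1.89. On the higher side, hsa_circ_0084769 had 0.64 and 1.16 beside hsa_circ_0084768. A total of 6 members shared all 4 counts with another member, such as hsa_circ_0048166 and hsa_circ_0048167 with 100, 295, 142 and 258 counts each. Whether reads shared between overlapping circRNAs or with a common linear RNA produced this likeness was not tested.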

How the data were processed

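Total RNA of 4 cultures was made into mRNA libraries, which the authors sequenced, trimmed and aligned to GRCh38 with HISAT2, with FPKM from StringTie. The tool that counted circRNAs is not given in the sources used here. The deposited table holds estimated counts per RNA, not normalized. Its circRNA counts are whole. In the circRNA rows the TPM column of the deposited table, entered as another unit, is the count divided by a fixed total, from which the authors' own circRNA total was recovered (1230341 to 2865901, of which 2.29% to 3.89% is not listed). A further 10 value columns were not used.

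Columns were assigned to samples by their headings. Library sizes were scaled by TMM over circRNA rows, and log2 fold changes used a prior count of 2. Clopper-Pearson intervals at 95% used these library sizes. Reads amplified by PCR are not independent molecules, which these intervals leave out. R 4.3.3, edgeR 4.0.16 (quasi-likelihood test, filterByExpr, Benjamini-Hochberg over all circRNAs tested), DESeq2 1.42.0 and Python 3.11.15 were used. The fit was tested on simulated data. Nothing in the labels says that the cultures of the 2 lines are replicates of one experiment. In the fit with the block, the 1 residual degree of freedom is how far the knockdown change differs between the 2 lines. Its p-values rest on that difference, pooled in part across circRNAs, and no replicate spread within a line enters.

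Named members were the 5 most abundant, the 2 that rose and the 2 that fell most by the smaller change in the 2 lines, the 2 highest in each line in both arms, those with the largest difference between the lines, members at the threshold and known circRNAs of the list. The names of known circRNAs come from general knowledge of circBase identifiers. Called members outside this rule, runs and pairs were chosen after their values were seen. The members and lists were chosen with earlier results of these data known.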

Additional observations from a re-analysis of the deposited data

Results flagged for a closer look

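In the 2 cell lines, 4 members lay more than 1.5-fold from control in opposite directions (0.267%, against 1.29% of all circRNAs listed in all 4 libraries), and these differences were not tested. hsa_circ_0001974 had 636 and 364 CPM in U87MG control and shFLI1 and 288 and 503 CPM in U251MG, so its log2 fold change was 1.6 greater in U251MG. For hsa_circ_0066178 the difference was 1.59, and for hsa_circ_0066180 it was 1.36. Both had log2 fold changes of the same signs, -0.77 and 0.82 for the former and -0.71 and 0.66 for the latter. hsa_circ_0128030 went the other way, with 169 and 265 CPM in U87MG and 203 and 119 CPM in U251MG, a difference of -1.40.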

How the results depend on the processing

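No library could be left out, since 3 libraries leave no residual degree of freedom, and each line's own values are those without the other. The test of the shared knockdown change is paired, since the cell line as a block joins the 2 libraries of each line, and the labels carry no other replicate numbers. For the knockdown change per line, 4 members were past 2-fold upwards and 25 downwards for U87MG, and 3 and 44 for U251MG. They became 15 and 16 in U87MG with linear library size, 50, 108, 59 and 100 at 1.5-fold, 12, 51, 6 and 75 with at least 50 counts and 1, 14, 1 and 29 with at least 200 counts. The last 3 settings change the threshold or the number of members by construction. The median in U87MG became 0.19 and the share with the same sign 67.4% with linear library size. Pearson r became 0.26 without members past 2-fold. The shared knockdown change had 3 members among 7 circRNAs called, against 10 of 27 with linear library size, 6 of 18 with DESeq2 size factors, 41 of 70 with DESeq2, 0 of 0 without the block (in edgeR, 63 members or 4.21% at an unadjusted p below 0.05, against 10.9% of all) and 2 of 3 without the filter. Of settings added after seeing the data, the authors' total gave 6 of 22 and circRNAs listed in all 4 libraries 10 of 41. The cell line difference had 5 members among 41, against 119 of 471 with linear library size, 165 of 326 with DESeq2 and 0 of 0 without the block (312 members or 20.9% at an unadjusted p below 0.05 in edgeR, against 8.67% of all). The authors' total gave 33 of 228 and circRNAs listed in all 4 libraries 137 of 643. The cause of these differences was not tested. Of 101 alternatives to these results, 40 moved, and of 200 values of named members 44 left their counting interval, 4 had another sign and none (0) past 2-fold reversed. The depth of U87MG control, the shallowest library, limits which circRNAs are members.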

Other observations

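Counts of the members were examined for parity. All 4 counts were even for 117 of 1496 members (7.82%) and all odd for 89 (5.95%), where independent parity would give 6.25% each. In the run hsa_circ_0101420 to hsa_circ_0101432 all 4 counts were even for 6 of 13 members. In the run hsa_circ_0000511 to hsa_circ_0000515 they were even for 4 of 5, with hsa_circ_0000511 at 264, 336, 374 and 308 counts in U87MG control, U87MG shFLI1, U251MG control and U251MG shFLI1. These runs were noticed in the data, and no explanation was tested.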
